A study of Homo sapiens with 4 samples.

Results

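The genes described here are 6 that encode proteins with which a cell surface holds off immune attack, namely CD47, CD274, PDCD1LG2, CD55, CD46 and CD59. They were looked up in maps of RNA bound by HNRNPC and PABPC4 in MDA-MB-231 cells, an established triple-negative breast cancer line. Every peak whose deposited gene ID belonged to one of the 6 genes was taken, and each position was counted once. This gave 7 of 9107 HNRNPC peaks and 35 of 63507 PABPC4 peaks. All 6 genes were matched among 19122 protein-coding genes with an annotated 3′ UTR.

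There were 4 samples of these cells, all cross-linked with ultraviolet light of 254 nm at 400 mJ per square centimetre. The 2 HNRNPC samples were made by CLIP, in which the protein is pulled down by an antibody and its cross-linked RNA is sequenced. The 2 PABPC4 samples were made by PAPERCLIP, a form of CLIP on a poly(A)-binding protein that marks mRNA 3′ ends. The labels name no drug, genotype change or second cell type. The authors pooled the samples of each protein into 1 peak list, so no value has a spread between replicates and no test between conditions could be made. The signal of a peak is its height, counted in unique tags of both samples at the summit. Heights were not scaled to depth and are compared only within a list. Shares of tags are shares of summed peak heights, so tags of a peak away from its summit are not counted. Intervals cover counting error only.

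Of the markers of the line, 5 of 5 mesenchymal-like genes (VIM, CD44, AXL, FN1 and EGFR) had a PABPC4 3′ UTR peak. Among genes that should be low or absent, 2 of 4 had one, with 56 tags for CDH1 and 88 tags for EPCAM, while ESR1 and PGR had none. None of 3 immune cell markers (PTPRC, LYZ and CD3E) had one. For comparison, 51.1% of all protein-coding genes had a PABPC4 3′ UTR peak. In those genes the tallest such peak had a median of 75 tags, which is below the 88 tags of EPCAM.

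CD47 is the "don't eat me" signal that engages SIRPA on macrophages. CD274 and PDCD1LG2 encode PD-L1 and PD-L2, the ligands of the T-cell brake PD-1. CD55 speeds the decay of complement convertases, CD46 is a cofactor for the cleavage of complement fragments by factor I, and CD59 blocks assembly of the membrane attack complex. A gene may end its mRNA at different poly(A) sites. Where these lie in the same 3′ UTR, the choice changes its length but not the protein. The CD47 mRNA is a known case, since its long 3′ UTR can direct the protein to the cell surface through the RNA-binding protein ELAVL1. HNRNPC is a mostly nuclear protein that binds runs of U.

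A PABPC4 peak was called end-like where its 3′ end lay within 50 nt of an annotated transcript end of the gene. A peak also counted where AAUAAA or AUUAAA, the main poly(A) signals, began in its last 40 nt and no A-rich stretch followed. The next 50 nt were called A-rich where they held a run of 6 A, or at least 7 A within some 10 nt. There were 12 end-like peaks among the 35, of which 11 lay in a 3′ UTR and 1 in an intron. In 3′ UTRs, 61.1% of the peaks of the members were end-like, near the 61.2% of all 20055 PABPC4 peaks there. In introns it was 1 of 16 (6.25%), against 2.42% of all 38250. The 3′ ends that carry the results are shown first, read 5′ to 3′ on the RNA strand from hg38 in windows of 30 nt, with the poly(A) signal in capitals. The name gives the peak height and where the peak ended, counted in nt after the stop codon along the main transcript.
CD47, short end, 255 tags, 221 nt, chr3:108047075-108047104 minus strand: uuaguuAAUAAAauaauuaugaucuauguu
CD47, long end, 65 tags, 3988 nt, chr3:108043294-108043323 minus strand: auacuuAAUAAAacauuuuaagcuauuuug
CD47, intron 1, 30 tags, chr3:108088694-108088723 minus strand: cuagcaAAUAAAacuuuaaauaaauaauga
CD59, end 1, 288 tags, 140 nt, chr11:33709992-33710021 minus strand: ggaaagAAUAAAauuagcuugagcaaccug
CD59, end 4, 27 tags, 4843 nt, chr11:33705282-33705311 minus strand: cccuccAAUAAAuucucaguguaagcuucu
CD55, first end, 72 tags, 102 nt, chr1:207359685-207359714 plus strand: ggauaaAAUAAAugcaauugugcucuucau
CD55, last end, 137 tags, 890 nt, chr1:207360473-207360502 plus strand: aauagaAAUAAAugaucccauuuuuuggua
CD46, only end, 254 tags, 2033 nt, chr1:207795479-207795508 plus strand: uguuaaAAUAAAauuguacauuuggagaug

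These 8 were those of the 12 end-like peaks that had a signal, and in each it was AAUAAA. The intron 1 peak of CD47 and end 4 of CD59 lay 29242 and 2271 nt from the nearest annotated end. Both were counted for the signal alone, and at 30 and 27 tags both were below the list's median of 38. The other 4 end-like peaks had neither signal in their last 40 nt and were counted because they ended within 50 nt of an annotated transcript end. For 3 of them, ends 3 and 2 of CD59 and the middle end of CD55, the last 30 nt of the peak are shown in lower case.
CD59, end 3, 433 tags, 1453 nt, chr11:33708673-33708702 minus strand: aauagaaacuugcuuaucaaaacuuagcau
CD59, end 2, 197 tags, 688 nt, chr11:33709438-33709467 minus strand: guaauagcauacaucaaugguguguuaaag
CD55, middle end, 71 tags, 246 nt, chr1:207359827-207359856 plus strand: caacuugcagaauugagagugauuccuuuc

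To ask which 3′ ends of the anti-phagocytic signal were bound, CD47 (3:108043091-108091862, minus strand, 11 exons) was examined. PABPC4 marked both a short and a long end of its 3′ UTR, which is 4197 nt long in the main transcript. The short end was 255 tags high and lay 12 nt past an annotated transcript end. The long end was 65 tags high and lay 2 nt before the end of a retained-intron transcript, or 209 nt before the end of the main transcript. The short end was thus 3.92 times as high as the long one (95% exact interval 2.98 to 5.23). Of the summed heights of both ends, 20.3% was at the long end (95% Wilson interval 16.3 to 25.1%).

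The third end-like peak of CD47, in intron 1, was 30 tags high. With it included, the short end held 72.9% (68.0 to 77.2%) of the end-like tags of CD47, the long end 18.6% (14.8 to 23.0%) and the intron peak 8.57% (6.07 to 12%). The 3 intervals do not overlap. When 10 rarer poly(A) signals were also allowed, for 12 in all, the share of the short end was 61.2%.

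The 7 other PABPC4 peaks of CD47 were 14 to 88 tags high. They comprised 2 in the 3′ UTR, 4 in introns and 1 in the coding sequence. The 2 in the 3′ UTR were a 30-tag peak ending 56 nt after the stop codon and a 22-tag peak at 1695 nt, the latter before an A-rich stretch. The tallest, with 88 tags, lay in intron 9 and was also followed by an A-rich stretch.

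The part of the CD47 3′ UTR that is present only when the long end is used was rich in U. Over the whole 3′ UTR there were 78 matches to UUUUU on the RNA strand (overlapping matches counted), or 18.6 per kb. This was more than in 95% of 17627 genes, whose median was 5.01 per kb and of which 79.5% held the motif at least once. Of these matches, 74 lay in the 3767 nt between the short and the long end and 1 in the 221 nt before the short end. AUUUA, the core of AU-rich elements, occurred 19 times (4.53 per kb, above 87.9% of genes), of which 15 lay between both ends. A motif is a description of letters, not a bound site.

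HNRNPC had 2 peaks in CD47, of 8 and 6 tags, and neither was in the 3′ UTR. Both lay in intron 7 of the main transcript, in sequence that a retained-intron transcript keeps as exon. They are among the low peaks of the HNRNPC list, in which 18.3% and 3.46% of all peaks were lower. The nearest PABPC4 peak was the 88-tag peak of intron 9, at 3914 and 2643 nt. The peak caller gave them p-values of 3.06e-07 and 0.00387. So no HNRNPC peak was listed in the U-rich part of the 3′ UTR. The height that the caller expected by chance in CD47 was 0.06 tags in the HNRNPC list, below the median of 0.14 tags over 3779 genes. The lowest peak of the list was 3 tags high.

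**Figure D1:**
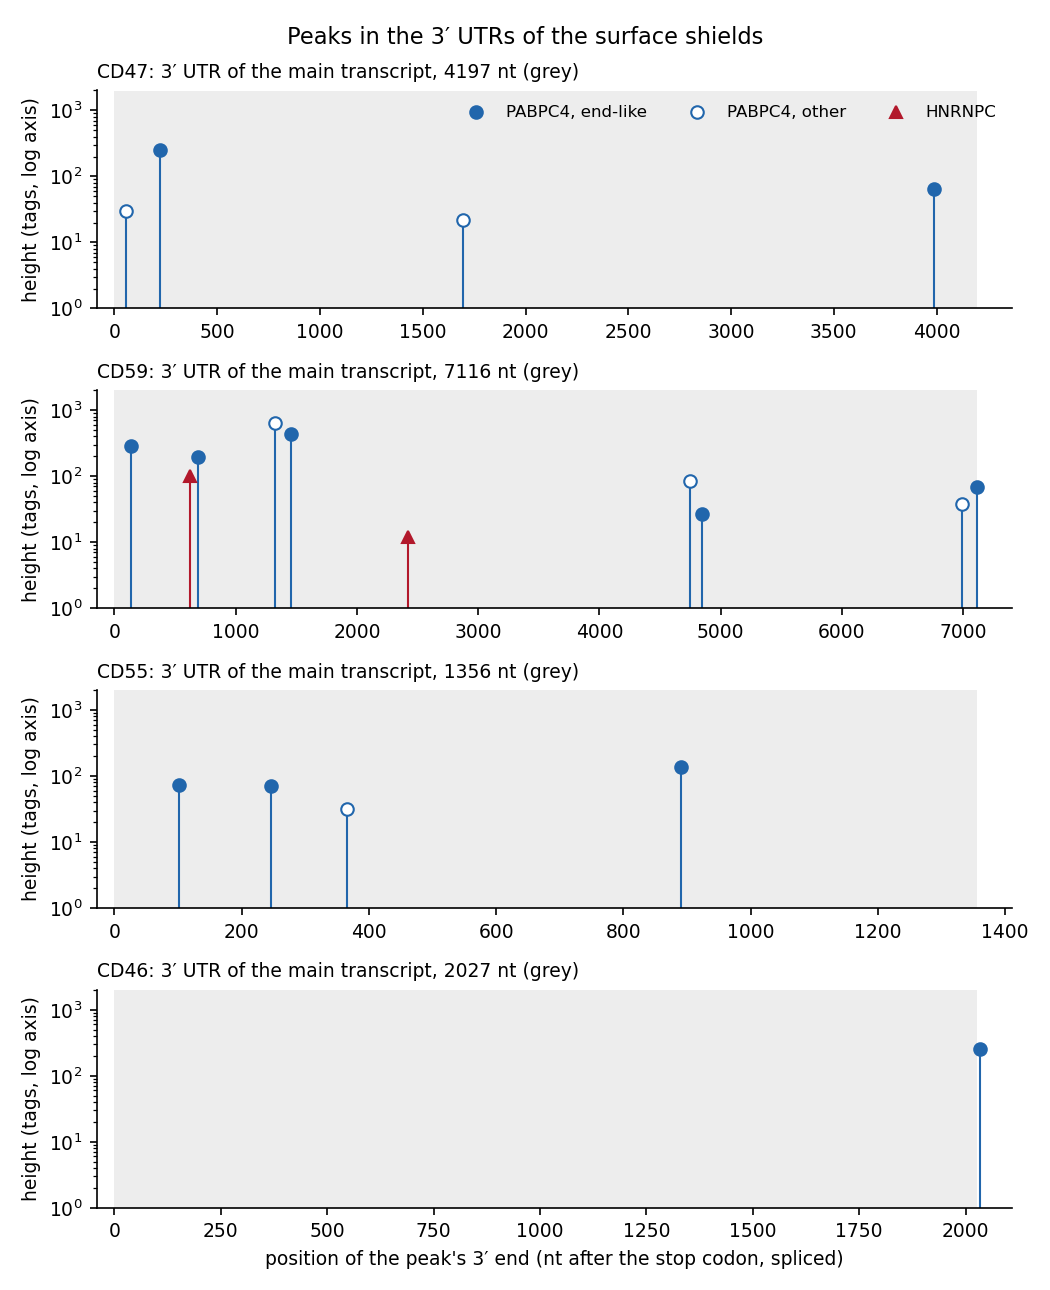
Peaks in the 3′ UTRs of CD47, CD59, CD55 and CD46, with the position of the peak's 3′ end after the stop codon (nt, spliced) across and the height (tags, log axis) up. Filled circles are end-like PABPC4 peaks, open circles other PABPC4 peaks and triangles HNRNPC peaks; CD47 has a 255-tag peak near the stop codon and a 65-tag peak near the far end, CD46 has 1 peak, and HNRNPC peaks occur only in CD59.

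CD274, the gene of PD-L1 (9:5450503-5470566, plus strand), had no PABPC4 peak at all, although its 3′ UTR is 2692 nt long. Its single HNRNPC peak was 5 tags high, in intron 1, with a caller p-value of 0.0506. Only 0.626% of all HNRNPC peaks were lower. PDCD1LG2, the gene of PD-L2 (9:5510531-5571282, plus strand), had no HNRNPC peak and 1 PABPC4 peak of 9 tags. That peak lay in intron 3, was not end-like and was followed by 7 A in a row in the genome. Neither PD-1 ligand therefore had a PABPC4 peak in its 3′ UTR. A gene may be missing from the list because its mRNA was scarce or because its end was not bound, and these cannot be told apart here. The CD274 3′ UTR held AUUUA 14 times (5.20 per kb, above 91.3% of genes), whereas that of PDCD1LG2 held it 1 time (0.756 per kb, above 34.0%).

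UUUUU lay in the 50 nt upstream of 3 of the 7 HNRNPC peaks of the 6 genes and of 30.5% of all HNRNPC peaks.

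CD59, the blocker of the membrane attack complex (11:33703010-33736479, minus strand, 4 exons in the main transcript), was the member most densely covered by both proteins. It had 14 PABPC4 and 4 HNRNPC peaks. Its 3′ UTR of 7116 nt is longer than that of 97.0% of genes. Of the PABPC4 peaks, 3 (of 186, 42 and 22 tags) lay 4089 to 4744 nt past the annotated end of CD59. They were also listed under the neighbouring gene C11orf91, on the same strand, so the gene they came from is uncertain. The other 11 lay inside CD59.

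PABPC4 marked 5 end-like positions in the CD59 3′ UTR. They were 288, 197, 433, 27 and 69 tags high in order from the stop codon. The third end, 1453 nt after the stop codon, held 42.7% (39.7 to 45.8%) of the 1014 end-like tags. The first end, at 140 nt, held 28.4% (25.7 to 31.3%), and the second, at 688 nt, 19.4% (17.1 to 22.0%). The fourth, at 4843 nt, held 2.66% (1.84 to 3.85%). The last, at 7113 nt and 1 nt before the annotated end, held 6.80% (5.41 to 8.52%). Most tags were thus at the 3 ends nearest the stop codon, and the shares of all 5 ends differed by more than their intervals. The last end was followed by an A-rich stretch in the genome and was counted only for its annotated end.

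The tallest peak of CD59, of 629 tags, was not among these ends. Its 3′ end lay 52 nt before the nearest annotated end, just outside the limit of 50 nt, and an A-rich stretch followed. The 433-tag peak lay just downstream of it and ended 42 nt past an annotated end, just inside the limit. With a limit of 100 nt the 629-tag peak entered and held 38.3% of the tags, and the share of the last end fell to 4.2%. With 25 nt the 433-tag peak was lost, the 288-tag end held 49.6% and the last end 11.9%. Which end of CD59 was the tallest thus depended on this limit.

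HNRNPC had peaks in the CD59 3′ UTR, which was the case in no other of the 6 genes. The tallest peak, of 102 tags, covered 290 nt and ended 626 nt after the stop codon (chr11:33709500-33709789). Of the 519 HNRNPC peaks in 3′ UTRs, 7 were taller and 98.5% were lower. UUUUU lay both inside this peak and in the 50 nt before it. From 50 nt before each peak to its end, the other HNRNPC peaks of CD59 had longest runs of 3 or 4 U. The window shown is mostly before the 5′ border of the 102-tag peak, with the run of 5 U there in capitals.
CD59, HNRNPC 102-tag peak, chr11:33709788-33709817 minus strand: agcccucagauuaUUUUUccucuggcuccu
This peak overlapped the 197-tag PABPC4 peak of the second CD59 end by 19 nt. In the whole list, 24 of 519 HNRNPC 3′ UTR peaks (4.62%) overlapped an end-like PABPC4 peak.

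The other HNRNPC peaks of CD59 were far lower. One of 12 tags lay in the 3′ UTR at 2425 nt, 882 nt from the nearest PABPC4 peak (the 433-tag one). The other two were a 12-tag peak in intron 2 and a 16-tag peak in intron 1. They were 6937 and 432 nt from the nearest PABPC4 peak. The height expected by chance in CD59 was 0.82 tags, higher than in 95.5% of genes with an HNRNPC peak, and 3.47 tags in the PABPC4 list, higher than in 96.2% of genes with a PABPC4 peak. CD59 had both a high expected height and many peaks, and how far these depend on each other was not tested. Relative to that expectation, the 102-tag peak was 124 times as high, while the other 3 were 14.6 to 19.5 times as high. This ratio was also large for low HNRNPC peaks of genes with a small expected height. It was 133 and 100 for the 8- and 6-tag peaks of CD47 (expected 0.06 tags). For the 5-tag peak of CD274 (expected 0.05 tags) it was 100. By this ratio the 102-tag peak thus did not stand out from the peaks of CD47 and CD274.

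**Figure D2:**
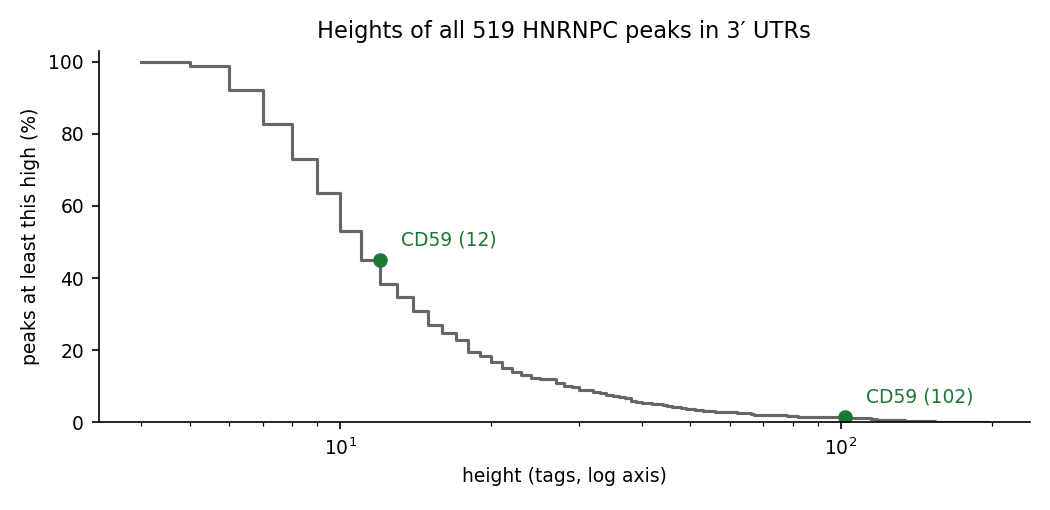
Share of the 519 HNRNPC peaks in 3′ UTRs (%, vertical axis) that were at least as high as the value on the horizontal axis (tags, log axis). Green points mark both CD59 peaks; the 102-tag peak lies in the far tail, with 7 peaks taller, and the 12-tag peak near the middle.

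CD55, which disarms complement convertases (1:207321519-207386804, plus strand), had 7 PABPC4 peaks and no HNRNPC peak. Its 3 end-like peaks were 72, 71 and 137 tags high and ended 102, 246 and 890 nt after the stop codon. The last held 48.9% (43.1 to 54.8%) of the 280 end-like tags. The first held 25.7% (20.9 to 31.1%) and the middle one 25.4% (20.6 to 30.8%), so these 2 did not differ beyond counting error. The last was the tallest end, unlike in CD47 and CD59. No peak was listed at the end of the main transcript, whose 3′ UTR is 1356 nt long. The other 3′ UTR peak, of 32 tags, was followed by an A-rich stretch, as were all 3 intron peaks (61, 76 and 69 tags).

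The CD55 3′ UTR held AUUUA 9 times, or 6.64 per kb, more than in 95.8% of 17627 genes. The median gene had 1.68 per kb, and 71.7% of genes held the motif. CD59 and CD46 had 1.41 and 2.47 per kb, above 44.9% and 63.7% of genes.

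CD46, the factor I cofactor (1:207752037-207795513, plus strand), had a single end-like peak. It was 254 tags high, ended 3 nt before an annotated end and 2033 nt after the stop codon, which is 6 nt past the end of the main transcript with its 3′ UTR of 2027 nt. The other 2 peaks were in introns, with 53 and 56 tags, and the first of these was followed by 11 A in a row. Although 21 transcript ends are annotated for CD46, not all of them of complete coding transcripts, only 1 PABPC4 peak was end-like. No HNRNPC peak was listed. A non-coding gene lies on the opposite strand of CD46, but 0 peaks of either list fell on the opposite strand of any of the 6 genes.

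**Figure D3:**
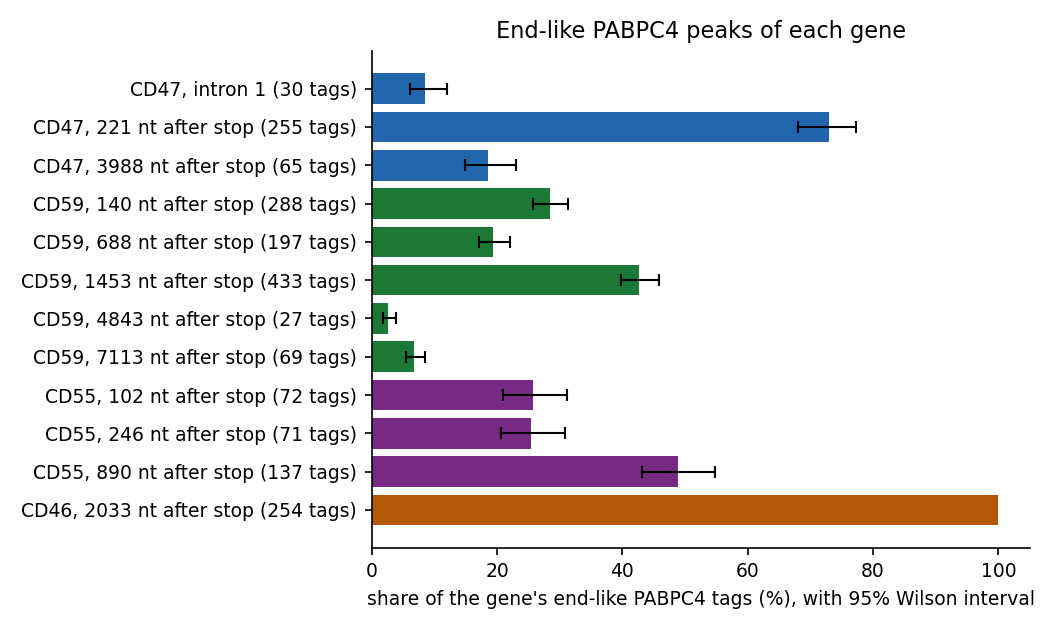
Share of each gene's end-like PABPC4 tags (%, horizontal axis) at each end-like peak, in order from the 5′ end of the gene; bars are shares and whiskers 95% Wilson intervals, which cover counting error only and are not drawn for CD46, with its single end. CD47 has most tags at its short end (72.9%), CD59 spreads them over 5 ends, CD55 has its largest share at its last end (48.9%) and CD46 has 1 end.

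The use of distal ends was set beside that in 2793 protein-coding genes with at least 2 end-like 3′ UTR peaks. In these, the last end held a median of 44% of the tags (quartiles 22.8 and 68.1%) and was the tallest in 47.2% of genes. In CD47, the last end held 20.3% of 3′ UTR tags, and 21.8% of genes had a lower share. In CD59 it held 6.80%, with 4.19% of genes lower, but this share was 11.9% with a limit of 25 nt and 4.2% with 100 nt. In CD55 it held 48.9%, with 55.6% of genes lower. CD59 also stood out by its number of ends, as 2.54% of the genes had at least 5. The genes were not matched for number of ends, and tags split over more ends leave less for the last, so the low rank of CD59 is not evidence of unusual use of its last end. The genes were compared as a description, with no test.

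The heights of the members were then placed among all genes. Of the 9775 genes with a PABPC4 3′ UTR peak, whose tallest peak had a median of 75 tags, 96.7% had a lower tallest peak than CD59 (629 tags). For CD47 (255 tags) and CD46 (254 tags) these shares were 87.6% and 87.5%, and for CD55 (137 tags) 72.3%. All 4 were above the median gene. The 629-tag peak of CD59 was not end-like. Counting end-like 3′ UTR peaks only, the share of lower genes was 93.8% for CD59, 87.6% for CD47 and CD46, and 72.8% for CD55. CD47 and CD46 differed by 1 tag, well within counting error. A height reflects both mRNA abundance and binding, which were not separated here.

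**Figure D4:**
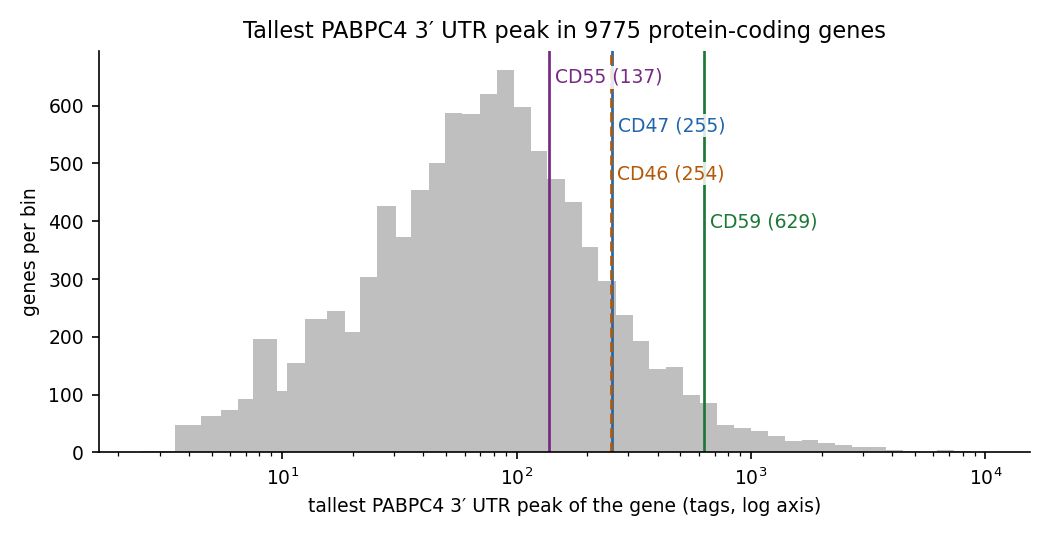
Number of protein-coding genes per bin (vertical axis) by the height of their tallest PABPC4 3′ UTR peak (tags, log horizontal axis), for 9775 genes. Coloured lines mark CD55, CD47, CD46 and CD59, which all lie above the median of 75 tags. The peak marked for CD59 was not end-like.

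Counted by gene, 3 of the 6 members had an HNRNPC peak, against 19.8% of all protein-coding genes, and 1 had one in its 3′ UTR, against 2.36%. The first count rests on low peaks, since with only peaks of at least the median height of the list (11 tags) it was 1 of 6. PABPC4 peaks were listed in 5 of the 6, against 61.5% of genes, and in the 3′ UTR of 4, against 51.1%. At least 2 PABPC4 3′ UTR peaks were found in 3 of the 6, against 27.5% of genes. The 6 genes were chosen by function and with earlier results of these data known, so these counts describe the set and were not tested. The 6 HNRNPC peaks in genes with both proteins lay 0 to 6937 nt from a PABPC4 peak, with a median of 1762.5 nt.

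Peaks were placed by every annotated gene on their strand. Of the peaks past the annotated end of CD59, the 186- and 22-tag ones thus count as intron and the 42-tag one as 3′ UTR. Most PABPC4 peaks listed under the 6 genes and placed in an intron sat before an A-rich stretch, as defined above. This was so for 11 of 16 intron peaks (68.8%, interval 44.4 to 85.8%), compared with 71.2% of all 38250 PABPC4 intron peaks. In 3′ UTRs it was so for 5 of 18 (27.8%, interval 12.5 to 50.9%), compared with 33.6% of 20055. A run of at least 6 A, the stricter part of the rule, followed 9 of the 16 intron peaks (56.2%, against 59.2% of all) and 3 of the 18 in 3′ UTRs (16.7%, against 16.6%). The members were thus near the background in both. Examples are the 186-tag peak shared by the CD59 and C11orf91 entries and the only peak of PDCD1LG2, whose next 30 nt are shown with runs of at least 6 A in capitals.
CD59, downstream of the 186-tag peak, chr11:33698780-33698809 minus strand: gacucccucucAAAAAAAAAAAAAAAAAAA
PDCD1LG2, downstream of the 9-tag peak, chr9:5539132-5539161 plus strand: AAAAAAAuucauaagaugcugaacauuaua
Whether such peaks came from genomic A rather than from a poly(A) tail was not tested.

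To see how other surface shields fared, 29 further genes were looked up. A PABPC4 3′ UTR peak was listed for 11 of them, against 51.1% of all protein-coding genes, and an HNRNPC peak for 4, against 19.8%. By list, a PABPC4 3′ UTR peak was found among complement regulators in 2 of 9, among brakes on phagocytes and partners of CD47 in 2 of 5, and among checkpoint ligands, ecto-enzymes and partners of PD-L1 in 7 of 15. The tallest peaks were those of NT5E (3085 tags), the ecto-enzyme CD73 that makes adenosine, THBS1 (802 tags), a secreted ligand of CD47, and CMTM6 (476 tags), which protects PD-L1 from lysosomal degradation. PVR, the ligand of TIGIT, was the only one with an HNRNPC 3′ UTR peak. It had 2 HNRNPC peaks, the taller of 18 tags, and 4 PABPC4 3′ UTR peaks of up to 62 tags. All 4 genes with an HNRNPC peak were in the list of checkpoint ligands and partners. With lists this short, these counts set no list apart from the background.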

How the data were processed

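HNRNPC CLIP and PABPC4 PAPERCLIP were measured in MDA-MB-231 cells, with 2 samples per protein, which the labels give as replicates. The labels name irCLIP for HNRNPC while the deposited list is named for another form of CLIP, and this was not settled. For HNRNPC, the authors collapsed reads by molecular identifier, extracted the identifiers with UMI-tools, trimmed the reads with cutadapt, aligned them to hg38 with BWA 0.7.17, dropped PCR duplicates and used the CLIP Tool Kit for peak calling. The processing of PABPC4 was not described separately. Column 5 of the lists deposited by the authors is the signal used here, the peak height in pooled tags, not scaled to depth. Each entry also carries a gene ID, the height expected by chance and the caller's p-value. The total number of reads per sample was not used here, and summed heights (147196 tags for HNRNPC and 4019739 for PABPC4) are not a depth.

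Peaks were placed by their centre on the GENCODE 44 annotation of hg38, in the order 3′ UTR, coding sequence, 5′ UTR, non-coding exon, intron, and 0 peaks ran past a chromosome end. Gene IDs were matched to symbols and these to GENCODE. Shares of tags have 95% Wilson intervals (scipy 1.17.1). Sequences were read from hg38 with pysam 0.24.0, and the rules for signals and A-rich stretches were tested on simulated data. The members and lists were chosen with earlier results of these data known. Named were all 6 members with every HNRNPC and every end-like PABPC4 peak, the tallest of the other peaks, the 3 further shield genes with the tallest PABPC4 3′ UTR peak, any with an HNRNPC 3′ UTR peak, and the 3 genes most like CD47 and CD274. Alternatives changed the p-value limit, the height, the distances, the signals, the A-rich rule, the gene assignment and the background. Some sequences are not reported here.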

Additional observations from a re-analysis of the deposited data

How the results depend on the processing

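No paired analysis was possible because the authors pooled both samples of each protein before peak calling, and for the same reason no sample could be left out. Of 118 alternative values, 98 stayed within 1.5 times the count or rank, or within the interval of the share, and 20 did not. With peaks of p at most 0.001, 3 HNRNPC peaks of the members were left, and the median distance to a PABPC4 peak was 432 nt. With peaks of at least the median height, 4 HNRNPC and 23 PABPC4 peaks were left, 1 member had an HNRNPC peak, and the shares of all genes were 11.0% for any HNRNPC peak, 1.27% for one in the 3′ UTR and 14.9% for at least 2 PABPC4 3′ UTR peaks. Among genes with any PABPC4 peak, the shares were 31.4% with an HNRNPC peak, 3.78% with one in the 3′ UTR, 83.1% with a PABPC4 3′ UTR peak and 44.6% with at least 2. Without PABPC4 peaks before an A-rich stretch, the median distance was 6189.5 nt. A limit of 25 nt to an annotated end gave CD59 49.6% at its tallest and 11.9% at its last end, and a limit of 100 nt gave 38.3% and 4.2%. With 12 poly(A) signals, the short end of CD47 held 61.2%, and the last end of CD59 became a 22-tag peak past its annotated end, with 2.12%. Counting 3′ UTR peaks only, chosen after seeing the data, gave the short end of CD47 79.7%. Also chosen then were leaving out positions under another gene ID and using only complete coding transcript ends, which moved no result past these limits. The heights of low peaks limit what can be said of CD274 and PDCD1LG2.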

Other observations

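The genes most like CD47 were sought among 19122 protein-coding genes by Euclidean distance over the log2 of 1 plus 4 values, the numbers of HNRNPC peaks, PABPC4 3′ UTR peaks and PABPC4 intron peaks and the height of the tallest PABPC4 3′ UTR peak. BRD8, a bromodomain protein, was nearest (distance 0.293), with 2 HNRNPC peaks and 4 PABPC4 3′ UTR peaks of up to 233 tags. NAA15, a subunit of an N-terminal acetyltransferase, followed at 0.373 with 251 tags, and SLC38A1, a glutamine transporter, at 0.376 with 315 tags. CD274 had no such neighbours of its own. There were 95 genes with exactly its values, 1 HNRNPC peak and no PABPC4 peak in a 3′ UTR or intron, of which ACACB, ACSF3 and ADGRD1 come first in the alphabet.

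In CD59, CD46, CD47 and CD55, the poly(A) signal content of the 3′ UTR did not follow the number of end-like PABPC4 peaks. That number includes peaks without a signal that ended near an annotated end, such as those of 197, 433 and 69 tags in CD59. It also depends on the distance limit, so a relation between signals and ends was not tested. CD59, with 5 end-like peaks, held AAUAAA or AUUAAA 4 times in 7116 nt (0.562 per kb, above 10.8% of genes), while CD46, with 1, held them 8 times in 2027 nt (3.95 per kb, above 78.9%). CD47 held them 10 times in 4197 nt (2.38 per kb) and CD55 5 times in 1356 nt (3.69 per kb). The median gene had 2.14 per kb.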
